A study of Drosophila melanogaster with 3 samples.

Results

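Grainy head (Grh) is a DNA-binding transcription factor of epithelial cells, with known roles in the fly in the making and wound repair of cuticle. Its peaks in the dm3 assembly were examined here at the centromere-side ends of the chromosome arms 2L, 3L, 3R and X, on the small chromosome 4 and on the sequences whose names end in Het. The peaks were chosen by position alone: start above 20000000 on 2L, above 21000000 on 3L, below 2000000 on 3R and at or above 20000000 on X, with all of chromosome 4 and every Het sequence except 2RHet. This gave 102 of the 1638 peaks of the mouse-antibody list and 799 of the 12158 peaks of the rabbit-antibody list, 901 of 13796 (6.53%) in all. They were compared with the rest of 2L, 3L, 3R and X, which held 1150 mouse and 8841 rabbit peaks.

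DNA near centromeres is packed largely as heterochromatin, a compact and repeat-rich form of chromatin that carries few genes and is marked by methylated histone H3 lysine 9 and the protein HP1. Chromosome 4 of Drosophila melanogaster is a special case, since it has heterochromatic marks over much of its length and still carries active genes. The Het sequences of the dm3 build are stretches of heterochromatin assigned to a chromosome but not joined to its arm. No chromatin mark was measured in this series, so how much of the chosen arm ends is heterochromatin is not known from these data.

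The study was a chromatin immunoprecipitation with sequencing (ChIP-seq) of whole w1118 embryos, collected at 13 to 16 h and fixed with 1.8% formaldehyde. There were 3 libraries, 1 for each of anti-Grh raised in mouse, anti-Grh raised in rabbit and the control rabbit IgG. The deposited peak lists of both anti-Grh libraries were analysed; whole embryos mix all cell types, so no peak can be given to one of them. With no replicate, no test over samples was possible, so shares, densities and medians are given with exact 95% intervals that cover counting error only. Neighbouring peaks are not independent, which makes these intervals too narrow. The 901 peaks were spread unevenly, with 41 mouse and 257 rabbit peaks on 3R, 23 and 190 on 3L, 20 and 168 on 2L, 6 and 93 on X, 6 and 70 on chromosome 4, and 6 and 21 on the Het sequences.

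Grh peaks were sparser near the centromeres of 2L, 3L and X and on chromosome 4 than on the rest of the arms, but not near the centromere of 3R. Without the Het sequences, whose lengths are not in the files, the rabbit list had 66.0 peaks per Mb (61.4 to 70.8) against 102 (99.6 to 104) on the rest, a ratio of 0.65 (0.60 to 0.70). The mouse list had 8.14 peaks per Mb (6.60 to 9.95) against 13.2 (12.5 to 14.0), a ratio of 0.62 (0.49 to 0.76). Both lists thus gave lower densities, and the intervals of both ratios lay below 1. The ratios do not count separate sites, since 99% of the whole mouse list had a rabbit peak within 250 bp. Without 3R the ratios were 0.53 in the rabbit and 0.46 in the mouse list.

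The lowest density was that of X, with 38.6 rabbit peaks per Mb (31.1 to 47.2) against 97.0 on the rest of X, a ratio of 0.40 (0.32 to 0.49). In the mouse list the X end had 2.49 peaks per Mb (0.91 to 5.42) against 8.85, a ratio of 0.28 (0.10 to 0.62). On 2L the rabbit list had 57.6 peaks per Mb against 94.2 (ratio 0.61, 0.52 to 0.72). The mouse list of 2L had 6.85 against 13.2 (ratio 0.52, 0.31 to 0.82). On 3L the rabbit list had 59.3 peaks per Mb against 108 (ratio 0.55, 0.47 to 0.64) and the mouse list 7.18 against 14.4 (ratio 0.50, 0.31 to 0.76). Chromosome 4 had 55.8 rabbit peaks per Mb (43.5 to 70.5), a ratio to the rest of the 4 arms of 0.55 (0.43 to 0.69), and 4.78 mouse peaks per Mb (ratio 0.36, 0.13 to 0.79). The intervals of chromosome 4 overlapped those of the 2L and 3L ends in both lists.

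The end of 3R went the other way. Its first 2 Mb held 128.5 rabbit peaks per Mb (113 to 145) against 106 (102 to 110) on the rest of 3R, a ratio of 1.21 (1.06 to 1.38). In steps of 500 kb this end held 36 to 89 rabbit peaks, within the 14 to 101 of the rest of 3R. The interval of the ratio does not cover such variation between steps. The mouse list had 20.5 peaks per Mb (14.7 to 27.8) against 15.7, and its ratio of 1.30 had an interval that included 1 (0.92 to 1.80). The rabbit interval of 3R did not overlap those of the other ends; the difference between arms was not itself tested.

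**Figure D1:**
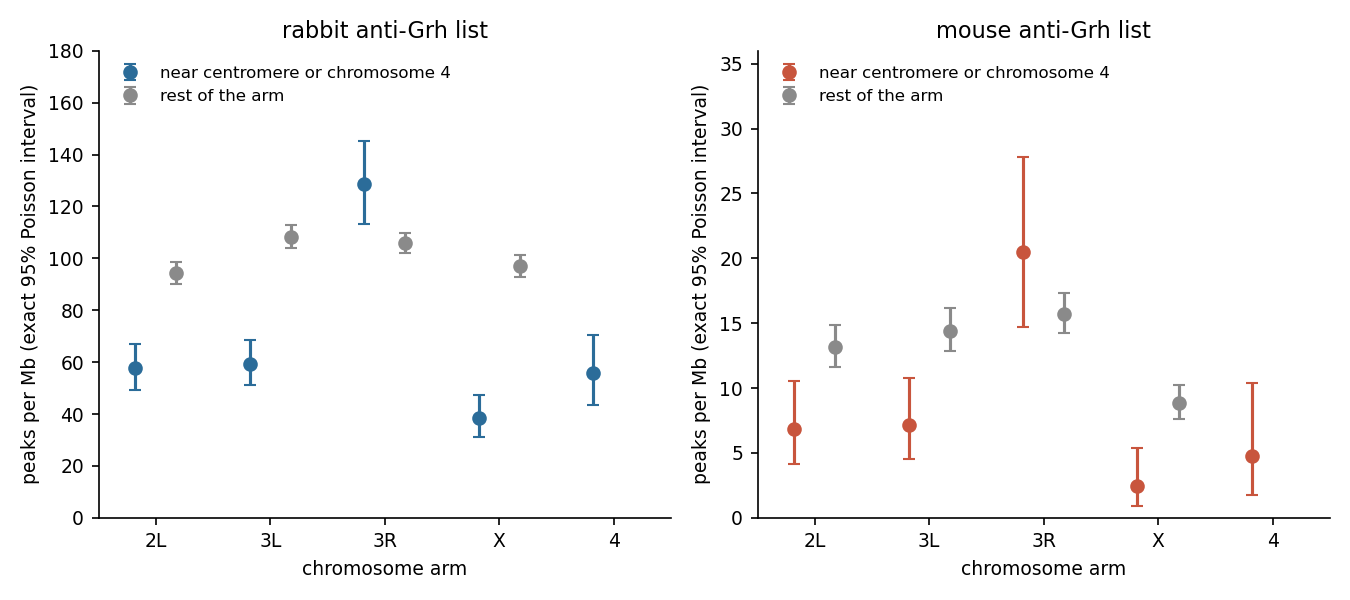
Peaks per Mb (vertical axis) on each arm and on chromosome 4, for the rabbit list on the left and the mouse list on the right. Coloured points are the centromere-side ends and chromosome 4, grey points the rest of the same arm, and bars exact 95% Poisson intervals. The coloured points lie below the grey ones on 2L, 3L and X and above them on 3R.

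The sparser ends included long stretches without any peak. Of 121 windows of 100 kb in the compared ends and chromosome 4, 25 held no peak of either list, against 27 of 869 on the rest. The empty windows were 12 of 33 on 3L, 7 of 30 on 2L, 5 of 25 on X, 1 of 20 on 3R and 0 of 13 on chromosome 4. Counted per occupied window, the rabbit ratio over all of them was 0.77 (0.72 to 0.83). Per occupied window the rabbit ratio was 0.46 (0.37 to 0.57) on X, 0.51 (0.40 to 0.65) on chromosome 4, 0.74 (0.63 to 0.87) on 2L, 0.82 (0.70 to 0.95) on 3L and 1.25 (1.10 to 1.42) on 3R. The mouse ratio per occupied window on 3L was 0.74, with an interval that included 1 (0.46 to 1.13). The ratios of 2L and 3L lay closer to 1 than over the whole span, which leaving out many empty windows brings about by itself. Chromosome 4 had no empty window to leave out, so its ratio could not rise in this way. The rabbit ratio of X was 0.46 against 0.40 over the whole span.

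The longest stretch without a rabbit peak was on 3L, 1030132 bp between 22991425 and 24021557. Beyond it lay the last 2 rabbit peaks of the arm, at 24021557 (score 6.41) and 24203464 (score 5.34), neither with a mouse peak. The mouse list of 3L ended earlier, at 22881373. The longest rabbit gaps of the other ends were 341133 bp on X, 233398 bp on 2L, 145131 bp on 3R and 98090 bp on chromosome 4. The mouse list had a gap of 883713 bp on X, between its peaks at 21152214 and 22035927, and of 462721 bp on chromosome 4, between 646669 and 1109390.

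In steps of 500 kb, the rabbit count fell off within the ends of 2L, 3L and X, though unevenly on 3L. On 2L the steps from the boundary inwards held 33, 49, 40, 27, 13 and 6 rabbit peaks (the last step covering 418 kb), where the 40 steps of the rest of the arm held between 17 and 83 (median 49). The 2 innermost steps of 2L were therefore below every step of the rest of that arm. On X the steps held 27, 24, 21, 11 and 10 rabbit peaks (the last covering 412 kb), against 22 to 75 on the rest (median 46.5), and the 3 innermost steps lay below that range. On 3L the first step held 82, near the highest step of the rest (86), and the following ones 40, 22, 44, 0, 0 and 2. The 3 innermost steps of 3L (the last covering 203.5 kb) lay below the range of the rest (19 to 86). On 3R the steps held 36, 89, 65 and 67, all within the range of the rest (14 to 101, median 52). The mouse counts were small, between 0 and 14 per step, with no mouse peak in the innermost step of 2L or the 3 innermost steps of 3L. In the innermost 1 Mb spanned by the lists, there were 132 rabbit and 19 mouse peaks on 3R, 22 and 1 on X, 19 and 2 on 2L, and 2 and 0 on 3L.

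**Figure D2:**
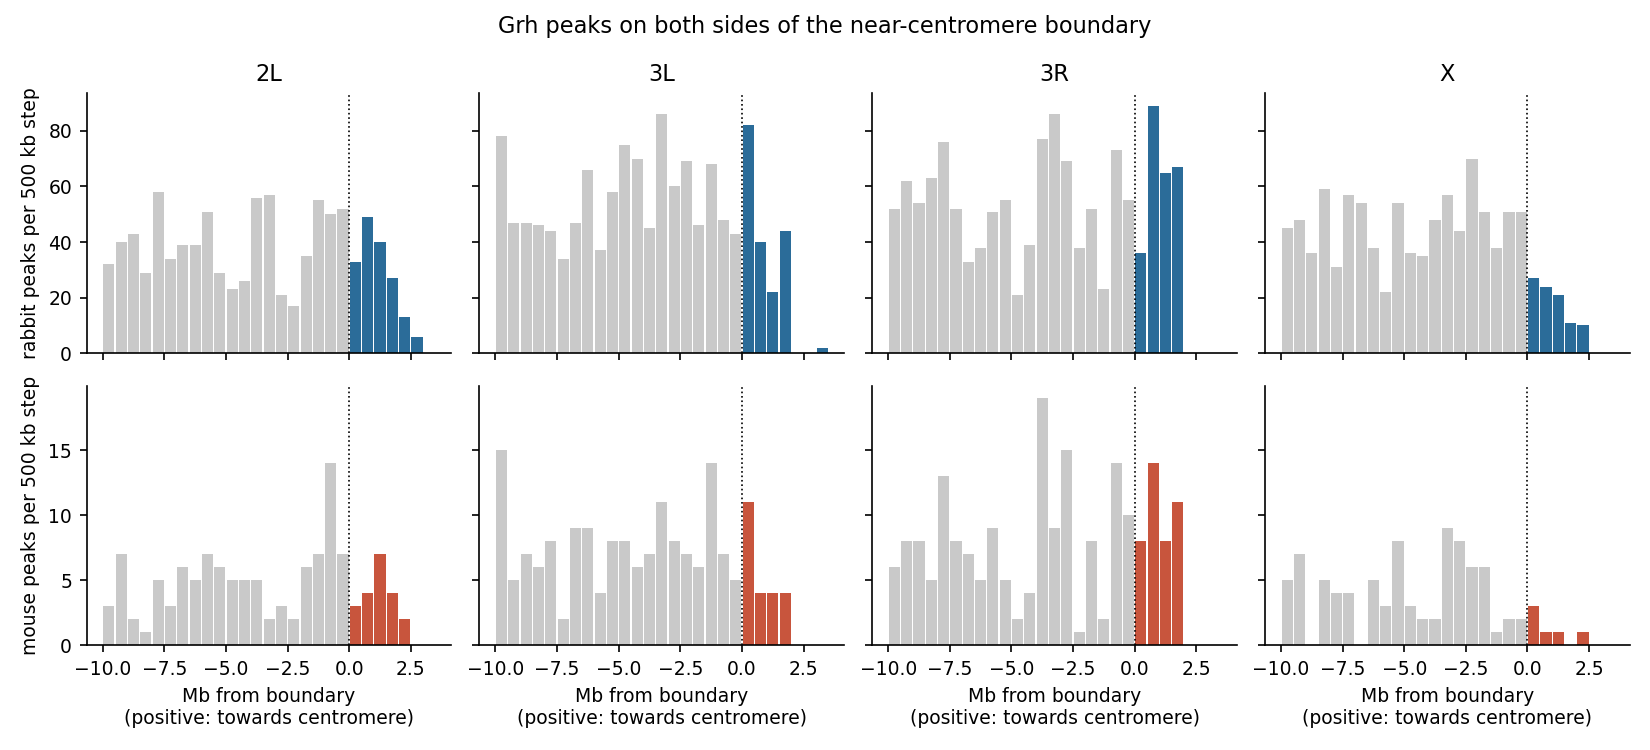
Peaks per 500 kb step (vertical axis) against the distance in Mb from the boundary of each end, positive towards the centromere, for the rabbit list above and the mouse list below. Coloured bars are the centromere-side ends and grey bars the adjoining 10 Mb of the arm; the innermost step can be shorter than 500 kb. The rabbit bars decline towards the centromere on 2L and X and, unevenly, on 3L, and stay within the range of the arm on 3R. The mouse bars are low. They fall from 11 to 0 on 3L and show no steady order on the other arms.

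The median scores of the peaks were close to those of the rest of the arms, while high mouse scores were more frequent. The score is the authors' own value for each peak, of unstated unit, and is compared within a list only. The rabbit median was 6.01 near centromeres, on chromosome 4 and on Het (interval 5.68 to 6.30) and 6.01 on the rest (5.92 to 6.12), the same tied value in both. The mouse median was 5.50 (4.63 to 6.23) against 5.27 (5.16 to 5.42), a difference of 0.23 with the median of the rest inside the interval. By sequence, the rabbit medians were 6.21 on 2L, 5.75 on 3L, 5.67 on 3R, 6.17 on X and 6.11 on chromosome 4, each with an interval that held the median of the rest.

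The Het sequences stood higher in the rabbit list, with a median score of 9.04 over 21 peaks (6.25 to 18.8), an interval above the median of the rest. In the mouse list chromosome 4 had the lowest median, 3.28, but over 6 peaks with an interval from 2.90 to 9.72.

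The upper scores of the mouse list differed more than its median. The top 10% of the mouse list, scores of 9.47 or more, took in 19 of 102 peaks, or 18.6% (11.6 to 27.6%), against 116 of 1150, or 10.1% (8.41 to 12.0%), on the rest. The odds ratio was 2.04 (1.13 to 3.54), a comparison added after the scores were seen. They were 7 peaks on 3R, 5 on 3L, 4 on 2L, 2 on Het and 1 on chromosome 4, with 0 of 6 on X. The lower bound fell to 0.88 without 3L (odds ratio 1.77) and to 0.97 with the boundary 0.5 Mb nearer the centromere (odds ratio 1.93). In the rabbit list 91 of 799, or 11.4% (9.27 to 13.8%), were in the top 10%, scores of 18.5 or more, against 9.96% on the rest (odds ratio 1.16, 0.91 to 1.46). Het alone stood apart there, with 6 of 21, or 28.6% (11.3 to 52.2%), and an odds ratio of 3.61 (1.15 to 9.89). Of these 6 peaks, 4 lay on 3RHet, 1 on 3LHet and 1 on XHet.

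**Figure D3:**
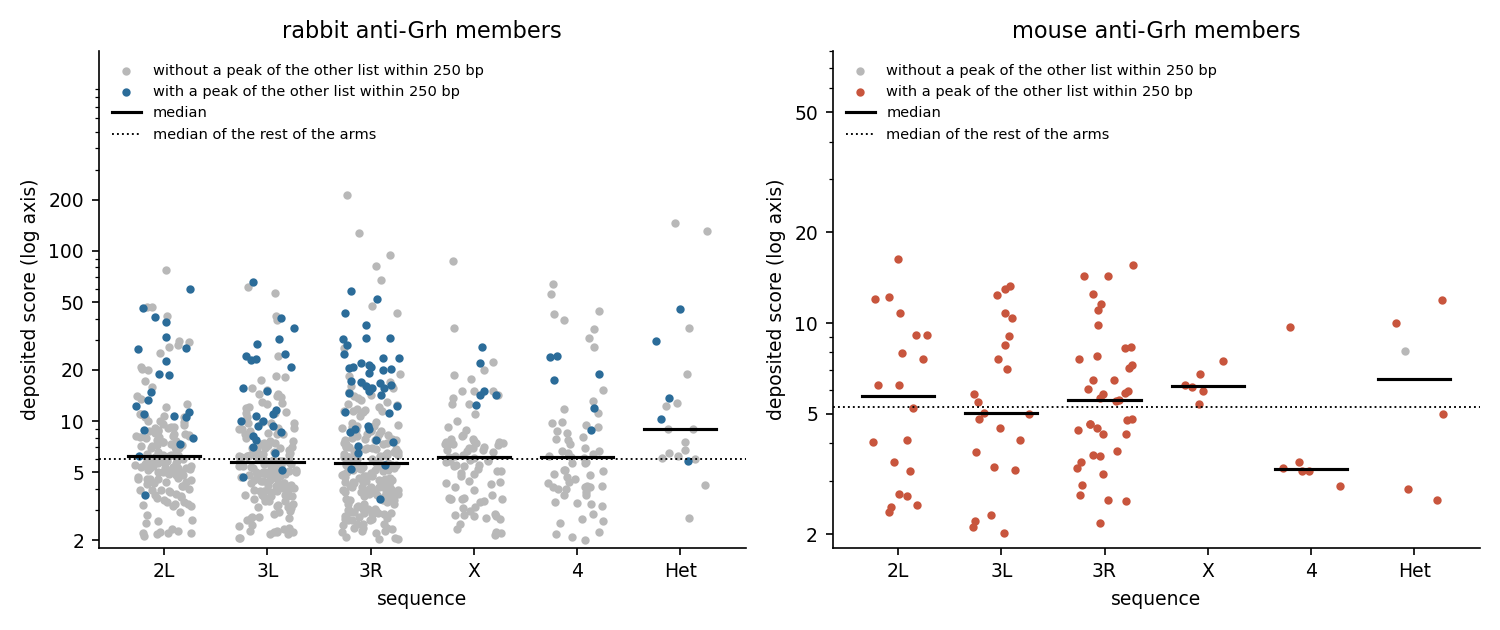
Deposited score (log axis) of every peak near a centromere, on chromosome 4 or on Het, by sequence, in the rabbit list on the left and the mouse list on the right. Coloured points had a peak of the other list within 250 bp and grey ones did not; the solid lines are medians and the dotted line is the median of the rest of the arms. The solid lines sit near the dotted line in the rabbit list except on Het (9.04 against 6.01), and the highest rabbit point is grey on every sequence but 3L.

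Rabbit peaks were matched by a mouse peak about as often as on the rest of the arms. A mouse peak lay within 250 bp of 108 of the 799 rabbit peaks, or 13.5% (11.2 to 16.1%), where 14.4% of the whole rabbit list had one. The rest of the 4 arms had 1225 of 8841, or 13.9% (13.1 to 14.6%), and the odds ratio was 0.97 (0.78 to 1.20). By sequence the matched share was 16.7% (12.4 to 21.9%) on 3R, 13.7% (9.14 to 19.4%) on 3L, 13.1% (8.39 to 19.2%) on 2L, 8.57% (3.21 to 17.7%) on chromosome 4 and 6.45% (2.40 to 13.5%) on X. The rest of X was low too, at 10.1% (8.80 to 11.5%). On the Het sequences 5 of 21 rabbit peaks were matched, or 23.8% (8.22 to 47.2%). These intervals overlapped each other.

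From the mouse side, 101 of the 102 peaks had a rabbit peak within 250 bp, or 99% (94.7 to 99.98%), against 99% of the whole mouse list and 98.8% on the rest. The exception was the peak on 3LHet at 2280615, with a score of 8.11 and its nearest rabbit peak 710363 bp away. All 96 mouse peaks on the arm ends and chromosome 4 were matched.

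The matched share climbed with the rabbit score in both sets. The rabbit peaks of both sets together were divided by score into 5 equal parts. From the lowest part to the highest, the matched share was 0.72%, 2.21%, 3.64%, 18.1% and 43.4% near centromeres, on chromosome 4 and on Het. On the rest it was 1.01%, 1.83%, 3.63%, 14.8% and 47.9%. Among the 100 highest-scoring rabbit peaks, however, most had no mouse peak: 11 of 14 in the set and 52 of 70 on the rest. Of the whole rabbit list, 14.4% had one. The odds ratio in the highest-scoring part was 0.83 (0.59 to 1.17), and pooled over the 5 parts (Mantel-Haenszel) it was 0.97. Matched rabbit peaks had a median score of 15.6 (13.3 to 19.0, 108 peaks) and unmatched ones 5.51 (5.29 to 5.75, 691 peaks); the rest had 15.8 and 5.49.

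**Figure D4:**
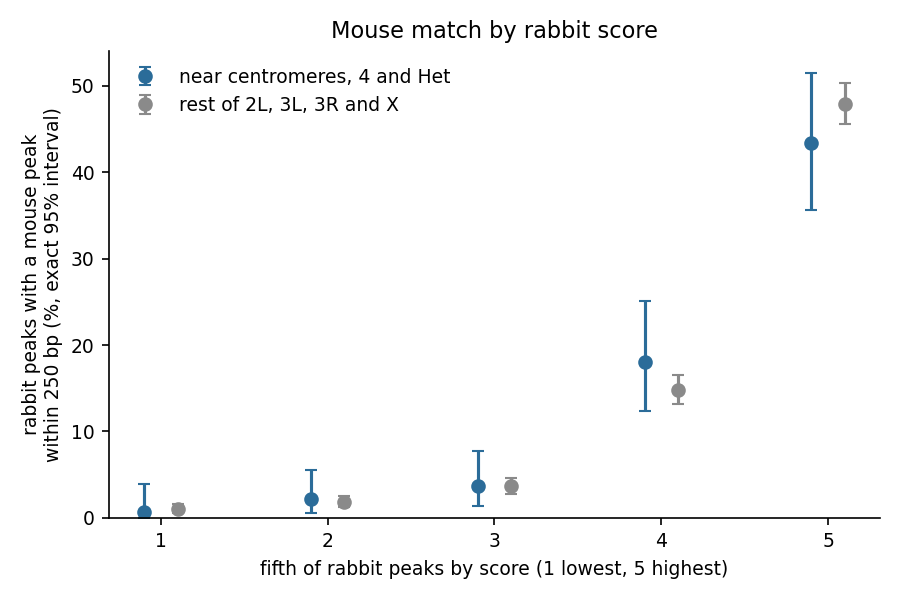
Percent of rabbit peaks with a mouse peak within 250 bp (vertical axis), with exact 95% intervals. The horizontal axis gives 5 equal parts, by score, of the rabbit peaks of both sets together, lowest to highest. Blue points are peaks near centromeres, on chromosome 4 or on Het, and grey points the rest of 2L, 3L, 3R and X. Both series climb, from 0.72% to 43.4% and from 1.01% to 47.9%, and their intervals overlap in every part.

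Where both antibodies marked a place, they did so at almost the same base and with related scores. Over 101 pairs of peaks that were each other's nearest, the median distance was 11 bp (quartiles 5 and 19, highest 168), against 11 bp (5 and 20) over 1126 pairs on the rest. The rabbit score was 3.13 times the mouse score at the median (quartiles 2.59 and 3.80), against 3.20 (2.52 and 4.09), the scores being on scales that need not be equal. Across pairs, the scores had a Spearman correlation of 0.81 near centromeres, on 4 and on Het and of 0.71 on the rest, a description of 2 libraries and not of samples. On chromosome 4 the 6 pairs had ratios from 2.47 to 7.42, with a median of 4.58, the highest of the 6 sequence classes. The 5 Het pairs had ratios from 2.25 to 3.81.

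**Figure D5:**
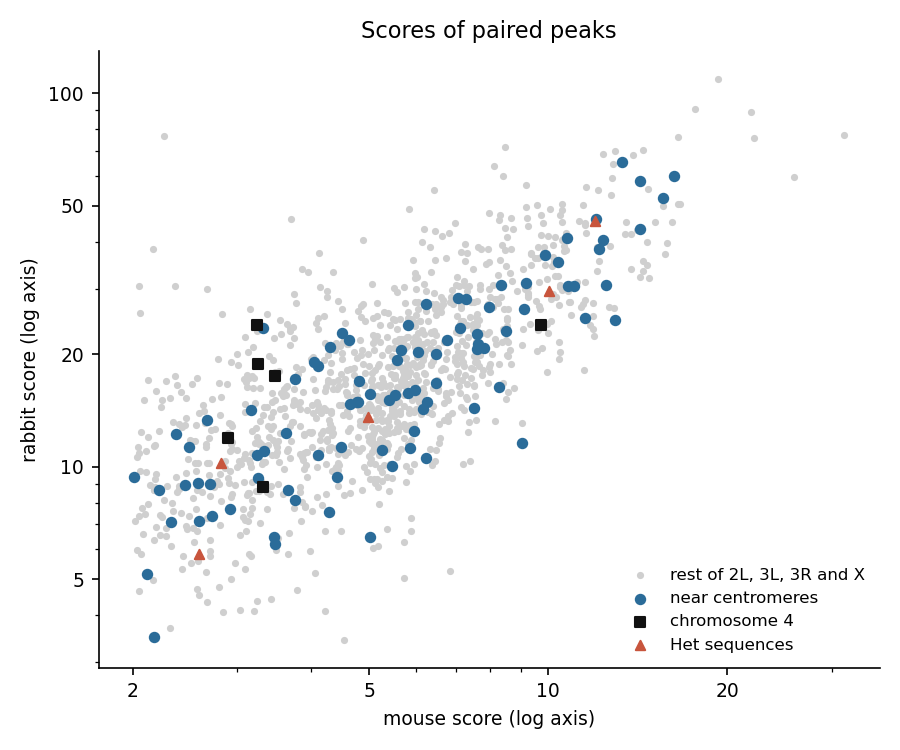
Rabbit score against mouse score (both log axes) for pairs of peaks within 250 bp that were each other's nearest. Blue circles are the arm ends, black squares chromosome 4, red triangles Het and grey points the rest of the arms. Coloured and grey symbols follow the same upward trend, with a median rabbit to mouse ratio of 3.13 against 3.20.

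Peaks were grouped about as often as elsewhere. Another rabbit peak lay within 1 kb of 394 of the 799, or 49.3% (45.8 to 52.8%), where 53.2% of the whole rabbit list had one. The rest had 52.4% (51.4 to 53.5%), and the odds ratio of 0.88 had an interval that included 1 (0.76 to 1.02). The share differed among the sequences: it was 56.4% (50.1 to 62.6%) on 3R, 49.0% on 3L, 46.4% on 2L, 46.2% on X and 37.1% (25.9 to 49.5%) on chromosome 4. Chromosome 4 was below the rest of the arms (odds ratio 0.54, 0.32 to 0.89). Its rabbit density was lower too, at 55.8 peaks per Mb against 102, while the 3R end had 128.5. The share of peaks with a close neighbour depends on density, and grouping beyond that was not tested. Without 3R the odds ratio of all was 0.75 (0.63 to 0.90), and with gaps of up to 2000 bp it was 0.84 (0.72 to 0.98), so that in both cases the interval no longer included 1. With the boundary 0.5 Mb nearer the centromere it was 0.83 (0.70 to 0.98).

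In the mouse list 16 of 102 peaks, or 15.7% (9.24 to 24.2%), had a neighbour within 1 kb, against 20.2% of the whole list and 19.8% on the rest (odds ratio 0.75, 0.40 to 1.32). The direction was not stable: the odds ratio was 1.14 (0.60 to 2.05) without 2L and 1.06 (0.68 to 1.61) with the boundary 1 Mb farther from the centromere. None of the 20 mouse peaks on the 2L end had such a neighbour, against 27.4% on the rest of 2L (odds ratio 0, upper bound 0.56). That 27.4% was the highest share among the rests of the arms. The share was 8.70% on the 3L end against 13.9%, 19.5% on 3R against 22.1%, and 33.3% on X against 13.6%. Chromosome 4 and Het also had 33.3%, and like X they held 6 mouse peaks each. The largest mouse groups held 2 peaks; groups of 3 or more were 0 of 94 here and 11 of 1026 on the rest, too few to compare.

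The largest rabbit group lay on 3R between 276563 and 279565, with 7 peaks of scores 2.72 to 8.67, of which 2 had a mouse peak. Groups of 6 rabbit peaks lay on 3L from 21018861 to 21021093 (scores 2.37 to 22.8, 1 matched) and on X from 20108696 to 20111458 (scores 5.89 to 14.3, 2 matched). The group on 2L from 20821765 to 20823955 had 5 peaks and no mouse match. Chromosome 4 had groups of 4 at 89383 to 91036 and at 855120 to 856627, both unmatched although their highest scores were 42.4 and 55.8. Groups of 5 or more rabbit peaks numbered 7 of 561 here and 95 of 5989 on the rest.

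The fullest 100 kb window was on 3L from 21000001 to 21100000, just inside the boundary, with 38 rabbit and 5 mouse peaks. That on 3R from 200001 to 300000 had 24 rabbit peaks, that on 2L from 20800001 to 20900000 had 22, that on X from 20900001 to 21000000 had 16 and that on chromosome 4 from 500001 to 600000 had 15. The fullest mouse window, on 3R from 1100001 to 1200000, held 6 mouse and 23 rabbit peaks, and every mouse peak in it was matched.

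The strongest rabbit peaks near centromeres were mostly without a mouse peak, as were those of the rest of the arms. Among the 100 highest-scoring rabbit peaks, 11 of the 14 near centromeres, on chromosome 4 or on Het had none, against 52 of the 70 on the rest. So did most rabbit peaks of any score, since 14.4% of the whole list had a mouse peak within 250 bp. On 3R the 3 highest, at 796603 (score 213), 1604645 (score 127) and 1996679 (score 94.5), were all unmatched, with the nearest mouse peaks 39294, 42179 and 37980 bp away. On X the peak at 20631562 (score 86.7) was 284193 bp from any mouse peak and that at 20931747 (score 35.03) was 15992 bp away, while the third, at 21152235 (score 27.2), was matched at 21 bp by a mouse peak of score 6.24.

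On 2L the highest rabbit peak, at 21379962 (score 77.2), had no mouse peak within 12447 bp. The next, at 21863836 (score 60.1), lay 22 bp from the highest mouse peak of the whole set, at 21863858 (score 16.3, order 12 in the mouse list). The third on 2L, at 20294133 (score 46.7), was unmatched. On 3L the highest rabbit peak, at 21060858 (score 65.5), lay 5 bp from the highest mouse peak of that end (score 13.3), and the following ones, at 21477193 (score 61.3) and 21597598 (score 56.2), were unmatched.

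The second mouse peaks of these ends were also matched at short distances. The mouse peak on 2L at 20794778 (score 12.2) lay 2 bp from a rabbit peak of score 38.2, and that on 3L at 22184563 (score 12.9) lay 25 bp from one of score 24.7. On 3R the highest mouse peaks, at 970 (score 15.6) and 6527 (score 14.3), had rabbit peaks of scores 52.4 and 43.2 at 10 and 13 bp. The highest on X were lower, at 20108689 (score 7.52) and 22035927 (score 6.77), with rabbit scores of 14.3 and 21.8. The strongest mouse peaks of the 4 arm ends were thus all matched, as were 99% of the whole mouse list. Only 14.4% of the longer rabbit list had a mouse match, so the strongest peaks of the lists cannot be contrasted on this.

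Chromosome 4 had 3 strong rabbit peaks with no mouse partner, at 1000670 (score 63.7), 856627 (score 55.8) and 957902 (score 44.4), each over 100 kb from the nearest mouse peak. Its strongest mouse peak, at 401297 (score 9.72), was paired at 5 bp with a rabbit peak of score 24.0. The other 5 mouse peaks, at 195797, 196116, 528119, 646669 and 1109390, had scores between 2.90 and 3.47. Their rabbit partners, at most 26 bp away, had scores of 8.81, 11.9, 18.8, 17.5 and 24.0. Those 5 mouse scores were below the first quartile of the mouse list (3.66). Of the 5 rabbit partners, 2 were in the top 10% of the rabbit list (18.5 or more). Rabbit partners scored high elsewhere too, with a median of 16.4 and an upper quartile of 24.0 over the pairs on the rest.

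The Het sequences held 21 rabbit peaks, 13 of them on 3RHet, 4 on 3LHet and 2 each on 2LHet and XHet, and 6 mouse peaks. On 3RHet the peaks at 2349411 (score 145) and 2107254 (score 131) were of order 4 and 7 in the rabbit list and lay 122020 and 364177 bp from any mouse peak. Both antibodies marked 3RHet at 2471431 (mouse score 10.04, rabbit score 29.6 at 26 bp). They also marked a group of 3 rabbit peaks from 2474102 to 2474652 (scores 10.2 to 13.6), beside mouse peaks at 2474355 (score 4.98) and 2474625 (score 2.82).

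On XHet the mouse peak at 50416 (score 12.0) and the rabbit peak at 50422 (score 45.6) lay 6 bp apart. On 3LHet the pair at 1570255 had low scores, 2.59 in the mouse and 5.84 in the rabbit list. The rabbit peaks of 2LHet, at 32908 and 34752, had scores of 6.25 and 12.3, and the mouse list had no peak on that sequence. The Het peaks shared by both antibodies were thus few and ran from low to high scores.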

How the data were processed

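The submitters' processing notes name Bowtie and the dm3 build. Not given in the sources used here were its version, the caller of the peaks and any threshold, any use of the IgG library, and the handling of reads from repeated sequence. Each anti-Grh library has its own deposited list, in which a peak is a 2 bp interval with a score of unstated unit set by the authors, at lowest 2.01 in the mouse and 2.00 in the rabbit list. Read depth is unknown. The IgG library was not analysed here. Positions are the first base of an interval, counted from 1.

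No peak was filtered out. Peaks of the lists matched where first bases lay within 250 bp, and were grouped by chaining neighbours of 1 list at gaps of up to 1 kb. Densities used the span from the stated boundary to the last peak of either list, because arm lengths are not in the files; this understates the length and overstates the density of the 2L, 3L and X ends, of chromosome 4 and of the rest of 3R. Intervals were Clopper-Pearson for shares, Poisson for densities, conditional for ratios and odds ratios, and order-statistic for medians, all at 95%. No p-value was computed, since each antibody had 1 library.

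The named peaks were the 3 highest-scoring rabbit and 2 highest-scoring mouse peaks of each sequence class, all mouse peaks of chromosome 4 and Het, unmatched mouse peaks, and the largest rabbit group and fullest window of each class; other rabbit peaks of Het and at the ends of gaps were named after their values were seen. The regions and rules were chosen with earlier results of these data known. Neither a genome nor an annotation of that build was used, so no sequence or gene is given and the intended motif search was not run. The intervals of density ratios, odds ratios and medians were tested on simulated data. Matching and chaining were checked by direct search on the deposited lists. The tools were SciPy 1.17.1, matplotlib 3.10.9, pandas 2.3.3 and NumPy 2.4.6 under Python 3.11.15.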

Additional observations from a re-analysis of the deposited data

How the results depend on the processing

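Of 120 alternative values for 10 results, 109 stayed within the interval of the reported value, 11 moved outside it and 0 turned the direction of a result whose interval left out a ratio of 1 or a difference of 0. The mouse difference of median scores (0.23), which had no such interval, ranged from -0.28 to 0.98. Leaving out 1 sequence at a time, other thresholds for the top scores, and the comparison of top scores itself were chosen after seeing the data. The rabbit density ratio (0.65) was 0.75 with the boundary 1 Mb farther from the centromere, 0.77 over occupied windows, 0.71 without X and 0.53 without 3R. The mouse ratio (0.62) was 0.46 without 3R. Among the higher-scoring 50% of peaks, the difference of median scores was 0.98 in the mouse list (0.08 to 2.73, which leaves out 0, unlike -0.65 to 0.96 over all peaks) and -0.41 in the rabbit list (-1.03 to 0.57); these intervals carry the error of the near-centromere median only. Among the same higher-scoring peaks the odds ratio of grouping in the rabbit list was 1.02; that odds ratio was 0.75 without 3R. Every mouse peak was matched (100%) on the 4 arm ends alone and without Het. The cause of these shifts was not tested. The odds ratio of a mouse match lay between 0.90 and 1.02 under its 14 alternatives. No paired analysis was possible because neither antibody had a second library. Unknown depth, 1 library per antibody and unknown arm lengths limit all values; peaks absent from a list may have been below its threshold.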

Other observations

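Members of the near-centromere, chromosome 4 and Het set were counted among the highest scores, a count chosen after the values were seen. They were 5 of the 20 highest-scoring rabbit peaks, or 25% (8.66 to 49.1%), while the set made up 6.57% of the rabbit list. All 5 lay on 3R or 3RHet, and none had a mouse peak within 250 bp. Of the 11 on the rest of the arms, 8 had none. Such a mouse peak was found for 14.4% of the whole rabbit list, so most rabbit peaks had none. Members of the set were 14 of the 100 highest-scoring rabbit peaks, or 14% (7.87 to 22.4%), 11 of them unmatched. They were also 15 of the 100 highest-scoring mouse peaks, or 15% (8.64 to 23.5%), where the set made up 6.23% of the mouse list. Among the 20 highest-scoring mouse peaks they were 2, or 10% (1.24 to 31.7%), an interval that held that share.

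The first 15 kb of 3R, the innermost listed sequence of that arm, held 9 rabbit and 5 mouse peaks. The mouse peaks were at 250 (score 3.32), 970 (score 15.6), 6527 (score 14.3), 7212 (score 4.29) and 12844 (score 4.76), each with a rabbit peak within 48 bp. The matched rabbit scores were 23.6, 52.4, 43.2, 7.57 and 14.9. A further rabbit peak, at 13128 (score 43.1), lay 284 bp from the last of these mouse peaks and so counted as unmatched.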
